A study of Oryctolagus cuniculus with 4 samples.

Results

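The nuclear-encoded genes of the mitochondrial respiratory chain and ATP synthase were examined in rabbit ear hypertrophic scar (HS), with and without treatment by drug-loaded microneedles (MNs). Members were taken by gene symbol, as every gene whose symbol starts with NDUF, UQCR, COX followed by a digit from 4 to 8, or ATP5, together with SDHA to SDHD. This rule found 36 of the 13913 genes in the table, and all 36 passed the filter on low values. They comprised 17 complex I subunits, 7 complex I assembly factors that share the NDUF prefix without being part of the finished enzyme, 3 complex III subunits, 3 complex IV subunits and 6 complex V subunits. No complex II gene was matched, so SDHA, SDHB, SDHC and SDHD were not analysed here. The table gives no symbol for 3706 of its genes, and the rule could not find members among those. Each complex is therefore described only by the subunits matched, and a subunit not matched cannot be read as absent.

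The respiratory chain sits in the inner mitochondrial membrane. Complexes I and II take electrons from NADH and succinate, complex III passes them to cytochrome c, and complex IV hands them to oxygen, while complexes I, III and IV pump the protons that complex V uses to make ATP. Most subunits are encoded in the nucleus and imported, whereas a small set in complexes I, III, IV and V is encoded by mitochondrial DNA, so each of these enzymes needs transcripts from both genomes. In skin, proliferating basal keratinocytes and fibroblasts respire, while cornifying keratinocytes lose their mitochondria.

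Each library was made by droplet single-cell RNA sequencing of a scar raised on the ear of a female wild-type rabbit, 10 to 12 weeks old at purchase. Of the 4 libraries, 2 came from untreated HS and 2 from scars given drug-loaded MNs, a patch of GelMA (gelatin methacryloyl) needles carrying a prodrug of 5-fluorouracil acetic acid, applied once a week for 3 weeks. Tissue was collected on day 43, and the labels do not say which animal gave which library, so the p-values measure only the spread between these 4 libraries. The table holds 1 value per gene and library rather than values per cell, with 11844 to 12059 genes above 0 in a library, and its sequencing depth is unknown. In such pooled values, fewer cells of a type and less RNA per cell cannot be told apart. Levels are given in parts per 1000000 of the library total, called units here, and differences as log2(value + 1) in drug-loaded MNs minus HS. Because the values are not known to be corrected for transcript length, levels of different genes were not compared as amounts of transcript. Sums and ratios of sums give most weight to genes with high values on this scale.

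Marker genes of cell types were read first, to show what the libraries hold. All 6 fibroblast markers tested were higher in both drug-loaded MNs libraries than in both HS libraries, with a median log2 difference of 1.12, and so were all 7 macrophage markers, with a median of 1.16. Of all genes tested, 26.6 percent were separated in this direction. No marker of these lists passed limma at an adjusted p under 0.05 (smallest 0.257 for fibroblasts and 0.296 for macrophages). Of the keratinocyte markers, 1 of 5 basal and 1 of 4 suprabasal were higher on average, beside 6043 of all 9348 genes tested. The groups overlapped in every keratinocyte marker tested. Also higher on average were 4 of 6 endothelial, 2 of 3 mast cell, 3 of 3 Schwann cell, 1 of 1 adipocyte and 0 of 2 chondrocyte markers. Among all 9348 genes tested, 4 passed limma at an adjusted p under 0.05, which is 0.0428 percent. At an unadjusted p under 0.05, 7.26 percent were higher and 1.39 percent lower in drug-loaded MNs. The higher genes were 83.9% of these, but 64.1% with median ratio scaling and 59.0% with quantile normalization.

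None of the 36 nuclear-encoded genes passed the test between drug-loaded MNs and HS. The smallest adjusted p was 0.673 (limma, Benjamini-Hochberg over all genes tested), and 0 of 36 had an unadjusted p under 0.05, against the 7.26 percent higher and 1.39 percent lower over all genes. None passed in any of 14 alternative fits either, in which the smallest adjusted p of a member was 0.269. The members divided evenly, with 18 higher and 18 lower on average. Their median log2 difference was -0.0027, beside 0.121 for all genes tested, and 31 of 36 lay within 0.25 of 0, beside 53.0% of all genes. These are small differences with wide errors: 32 of the 36 intervals (95%, limma) lay within a log2 difference of 1 on either side, so a doubling or halving fell outside them, while smaller shifts could not be separated from the spread between libraries.

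**Figure D1:**
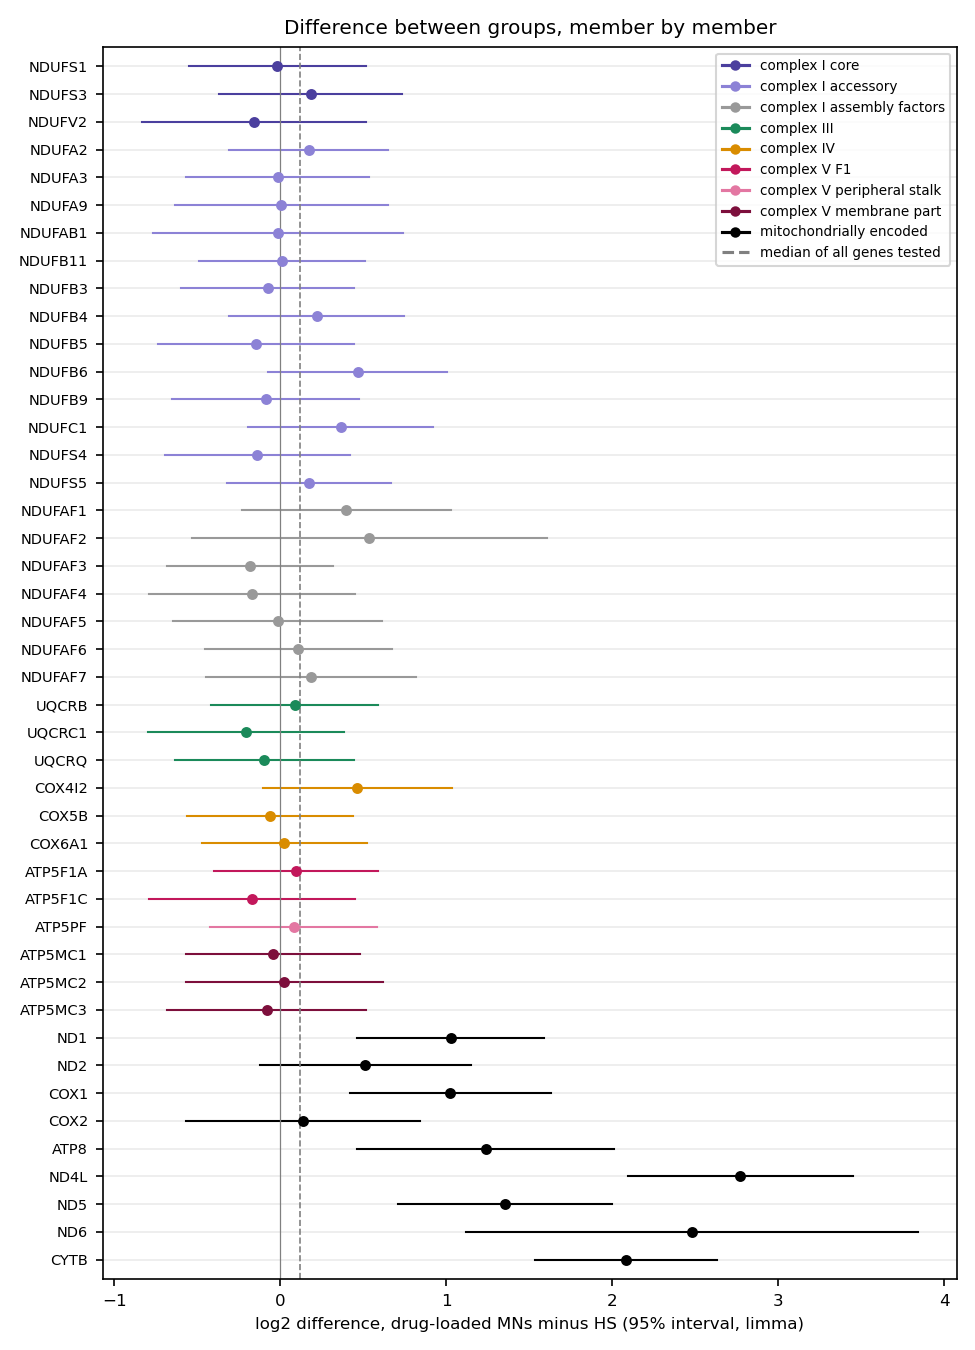
Log2 difference between drug-loaded MNs and HS for 35 nuclear-encoded members, coloured by complex, and for the 9 mitochondrially encoded subunits tested, in black. Points are the limma estimate, bars its 95% interval, and the dashed line the median of all genes tested. All 35 member intervals drawn cross 0, while those of 7 of the 9 mitochondrially encoded subunits lie above it.

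The median of the members was below 0 with every scaling, but its distance from 0 depended on the scaling. Quantile normalization gave -0.013, and a total that left out abundant genes gave -0.011, each with 17 higher and 19 lower. When libraries were scaled by median ratios, which moved the median of all genes from 0.121 to -0.011, the median of the members moved to -0.14, with 10 higher and 26 lower. Relative to the median of all genes, 26 members were below and 10 above without that scaling too. Leaving out HS replicate 1 moved the median of the members to 0.118 with 30 higher, and leaving out HS replicate 2 moved it to -0.11 with 15 higher. No direction for the group as a whole is therefore given.

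In complex I, the largest enzyme of the chain, 8 subunits were higher and 9 lower on average, with a median log2 difference of -0.013. The core subunits carry its catalysis. NDUFS1 (ENSOCUG00000012368), which holds iron-sulfur clusters in the NADH-oxidising module, was at 40.9 and 43.3 units in HS, against 44.5 and 38.9 with drug-loaded MNs. Its difference of -0.017 (SE 0.228) was close to 0, and the drug-loaded MNs libraries lay on both sides of HS.

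NDUFV2 (ENSOCUG00000009899), another iron-sulfur protein of that module, was at 159 and 95.7 units in HS, against 122 and 100 with drug-loaded MNs. HS replicate 1 stood above the other 3 libraries, and HS replicate 2 was the lowest. The difference of -0.16 became -0.52 without HS replicate 2 and 0.21 without HS replicate 1, so its sign rested on single libraries. NDUFS3, in the ubiquinone-reducing module, was at 132 and 98.6 in HS, against 136 and 124 with drug-loaded MNs, a difference of 0.18 (SE 0.236). Its groups overlapped, with HS replicate 1 above HS replicate 2.

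The 13 accessory subunits of complex I surround the core and stabilise it, and 5 of them had groups that did not overlap. NDUFB6 (ENSOCUG00000005089), in the membrane arm, was at 46.8 and 57.4 units in HS, against 76.2 and 68.2 with drug-loaded MNs. Both drug-loaded MNs libraries were above both HS libraries. The log2 difference was 0.47 (SE 0.231, 95% interval -0.071 to 1.01), with an unadjusted p of 0.0797 that was the smallest among the members and an adjusted p of 0.673. NDUFC1 (ENSOCUG00000004419), a small membrane-arm subunit, was at 198 and 266 units in HS, against 319 and 275 with drug-loaded MNs. Its groups did not overlap either, although HS replicate 2 and drug-loaded MNs replicate 2 were close, and the difference was 0.36 (SE 0.239, adjusted p 0.762).

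NDUFA2, NDUFB4 and NDUFS5 also had groups that did not overlap, and are named because of that, after their values were seen. NDUFA2 was at 271 and 274 units in HS, against 312 and 302 with drug-loaded MNs. NDUFB4 was at 118 and 122 in HS, against 157 and 124 with drug-loaded MNs. NDUFS5 was at 326 and 288 in HS, against 357 and 335 with drug-loaded MNs. The log2 differences of these genes were 0.17, 0.22 and 0.17, and with median ratio scaling 0.027, 0.076 and 0.030. NDUFB4 was at 0.048 without drug-loaded MNs replicate 1, and NDUFS5 at 0.085 without HS replicate 2. With NDUFB6 and NDUFC1 they made 5 of 17 complex I subunits, or 7 of all 36 members, with both drug-loaded MNs libraries above both HS libraries, beside 26.6 percent of all genes tested.

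At the other end of the accessory subunits, NDUFB5, in the membrane arm, was at 273 and 198 units in HS, against 238 and 186 with drug-loaded MNs, a difference of -0.15 (SE 0.253). NDUFS4, an accessory protein of the NADH module whose loss causes mitochondrial disease, was at 170 and 130 in HS, against 148 and 123 with drug-loaded MNs, a difference of -0.14 (SE 0.239). In both genes the replicate 1 libraries of both groups were above the replicate 2 libraries. The same order was widest in NDUFAB1, the mitochondrial acyl carrier protein, which was at 241 and 140 units in HS, against 221 and 150 with drug-loaded MNs with a difference of -0.013. The 5 accessory subunits not named here so far (NDUFA3, NDUFA9, NDUFB3, NDUFB9 and NDUFB11) had differences between -0.088 and 0.012.

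The 7 assembly factors NDUFAF1 to NDUFAF7 help build complex I and do not stay in it. NDUFAF2 (ENSOCUG00000004525), a chaperone of late assembly, had the largest log2 difference of any member, 0.54 (SE 0.458), and was the only one over 0.5 in size. It was at 3.22 and 9.96 units in HS, against 10.3 and 7.61 with drug-loaded MNs. The groups overlapped and HS replicate 1 was the lowest library. Without HS replicate 1 the difference was -0.15, and without HS replicate 2 it was 1.23, so the value rested on 1 library of a weakly measured gene.

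NDUFAF1, which acts in assembly of the membrane arm, was at 16.5 and 12.3 units in HS, against 20.1 and 18.2 with drug-loaded MNs, a difference of 0.40 (SE 0.269), without overlap. It was 0.20 without HS replicate 2 and 0.59 without HS replicate 1. NDUFAF3, which works with NDUFAF4 on the ubiquinone module, was at 322 and 275 in HS, against 255 and 269 with drug-loaded MNs, a difference of -0.18 (SE 0.214) that was -0.069 without HS replicate 1 and -0.30 without HS replicate 2. It was the single member of 36 with both drug-loaded MNs libraries below both HS libraries, beside 11.2 percent of all genes. NDUFAF1 and NDUFAF3 are also named for their separation after their values were seen. NDUFAF4 had a difference of -0.17, NDUFAF5 of -0.016, NDUFAF6 of 0.11 and NDUFAF7 of 0.19, all with overlapping groups.

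Complex III was represented by UQCRC1, UQCRB and UQCRQ. UQCRC1 (ENSOCUG00000002041), a core protein on the matrix side of the complex, had the lowest difference of any member, at -0.20 (SE 0.253). It was at 230 and 170 units in HS, against 195 and 150 with drug-loaded MNs, so each drug-loaded MNs library was below the HS library of the same number and the groups still overlapped. UQCRB, next to the ubiquinone-binding site, was at 151 and 154 in HS, against 177 and 149 with drug-loaded MNs, a difference of 0.088 (SE 0.215). UQCRQ, a small membrane subunit, was at 732 and 568 in HS, against 614 and 593 with drug-loaded MNs, a difference of -0.096 (SE 0.231). The 2 HS libraries of UQCRQ enclosed both drug-loaded MNs libraries.

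Complex IV was represented by COX4I2, COX5B and COX6A1. COX4I2 (ENSOCUG00000025424) is the alternative form of subunit 4, known from lung, from hypoxic cells and from the mural cells of vessels. It was at 47.4 and 61.5 units in HS, against 82.03 and 68.4 with drug-loaded MNs, without overlap, and its log2 difference was 0.46 (SE 0.244, 95% interval -0.11 to 1.03, adjusted p 0.700). The usual form, COX4I1, was not analysed here, so the isoforms could not be set against each other. COX4I2 was instead taken as a ratio to COX6A1, the widely expressed form of subunit 6A, which was at 584 and 545 units in HS, against 597 and 552 with drug-loaded MNs. That ratio was 0.0812 and 0.113 in HS, against 0.137 and 0.124 with drug-loaded MNs. COX6A1 varied little, so the ratio mostly restates the COX4I2 values, and its lack of overlap adds nothing to them.

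Markers of mural cells were listed after the value of COX4I2 was seen. Of 10 named, 6 were tested, all 6 were higher on average, 3 had groups that did not overlap and none passed the test. Those 3 were higher with drug-loaded MNs, beside 26.6 percent of all genes tested. Their summed level was 394 and 725 units in HS, against 901 and 705 with drug-loaded MNs, lowest in HS replicate 1 and highest in drug-loaded MNs replicate 1, as for COX4I2. Unlike COX4I2, the sums overlapped between the groups. Single markers also differed from this order, with PDGFRB lowest in HS replicate 2 (59.8 units) and RGS5 highest there (157 units). The part of mural cells in the COX4I2 values was not tested. COX5B, a zinc-binding subunit, was at 683 and 618 units in HS, against 642 and 604 with drug-loaded MNs, a difference of -0.061. COX6A1 differed by 0.025. The muscle form COX6A2, the isoforms COX7A1 and COX7A2, and NDUFA4 with its relative NDUFA4L2 were not analysed here.

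Complex V, the ATP synthase, was represented in its catalytic head by ATP5F1A and ATP5F1C, in its stalk by ATP5PF and in its rotating ring by ATP5MC1, ATP5MC2 and ATP5MC3. ATP5F1A, the alpha subunit, was at 286 and 305 units in HS, against 333 and 299 with drug-loaded MNs, a difference of 0.095 (SE 0.210). ATP5F1C, the gamma subunit that turns inside the head, was at 456 and 303 in HS, against 363 and 300 with drug-loaded MNs, a difference of -0.17 (SE 0.265). HS replicate 1 stood apart in ATP5F1C and not in ATP5F1A. ATP5PF, coupling factor 6, was at 380 and 358 in HS, against 423 and 359 with drug-loaded MNs, a difference of 0.081.

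The 3 ring genes encode the same mature subunit c with different import sequences. ATP5MC1 was at 650 and 526 units in HS, against 577 and 558 with drug-loaded MNs. ATP5MC2 was at 1400 and 1093 in HS, against 1417 and 1119 with drug-loaded MNs. ATP5MC3 was at 1006 and 736 in HS, against 908 and 728 with drug-loaded MNs. Their log2 differences were -0.043, 0.026 and -0.082, and in all of them the replicate 1 libraries were above the replicate 2 libraries. The ratio of ATP5MC3 to ATP5MC2 within a library was 0.719 and 0.673 in HS, against 0.641 and 0.650 with drug-loaded MNs. This ratio was lower in both drug-loaded MNs libraries, by a log2 difference of -0.11, although neither gene alone separated the groups. Of all single genes tested, 11.2 percent were lower without overlap. Among other gene ratios taken, ATP5F1C to ATP5F1A, NDUFV2 to NDUFS1, UQCRC1 to UQCRB and NDUFC1 to NDUFB5 overlapped. NDUFB6 to NDUFB5 and COX4I2 to COX5B did not overlap. These ratios were not tested. The ratio of ATP5MC1 to ATP5MC2 overlapped, at 0.464 and 0.481 in HS, against 0.407 and 0.499 with drug-loaded MNs.

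Most members differed more between the HS libraries than between the groups. In 29 of 36 the difference between the groups was smaller than that between the HS libraries, beside 61.9% of all genes. In drug-loaded MNs, replicate 1 was above replicate 2 in 35 of 36 members, with NDUFAF3 the exception, beside 64.3% of all genes. In HS, replicate 1 was above replicate 2 in 25 of 36, beside 40.3% of all genes. In 22 of 36 members, or 61.1%, both replicate 1 libraries were above both replicate 2 libraries, beside 18.1% of all genes, and in 0 members was the order the opposite, beside 14.8% of all genes. The median difference between replicates 1 and 2 was 0.21 between the HS libraries and 0.20 between those with drug-loaded MNs, while over all genes it was -0.12 and 0.11.

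**Figure D2:**
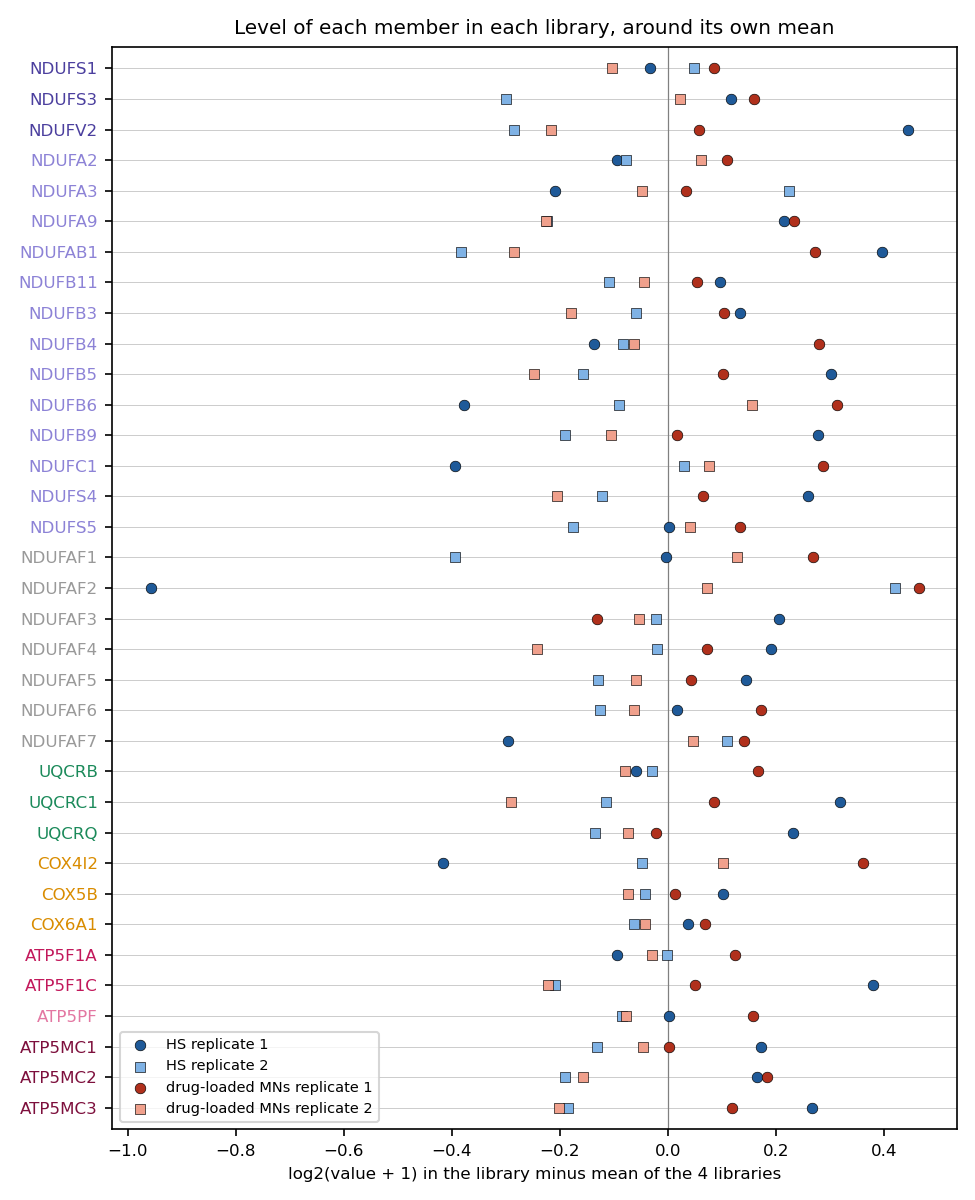
Level of 35 members in each library as log2(value + 1), minus the mean of the 4 libraries. HS is blue and drug-loaded MNs red, with circles for replicate 1 and squares for replicate 2, and the colour of a gene name marks its complex or, in grey, an assembly factor. Of those drawn, the highest library was HS replicate 1 in 16 and drug-loaded MNs replicate 1 in 18.

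The sources do not say that a replicate number marks an animal, batch or day shared by the groups. Marker genes for cycling cells and for keratinocyte layers were set beside this order. The 4 cycling markers tested were all higher in both replicate 1 libraries, with summed levels of 100.5 and 38.6 units in HS, against 201 and 56.4 with drug-loaded MNs. The summed level of 5 basal keratinocyte markers had the same order within each group, at 8265 and 5718 units in HS, against 7678 and 4040 with drug-loaded MNs. That of 4 suprabasal markers had the reverse order, at 36817 and 52315 units in HS, against 31363 and 41238 with drug-loaded MNs. KRT5 and KRT14 made up most of the basal sum, and TP63 and COL17A1 were lower in HS replicate 1 than in HS replicate 2. KRT10 made up most of the suprabasal sum, and KRT1 was higher in replicate 1 of both groups. The part of these cells in the order of the respiratory genes was not tested.

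**Figure D3:**
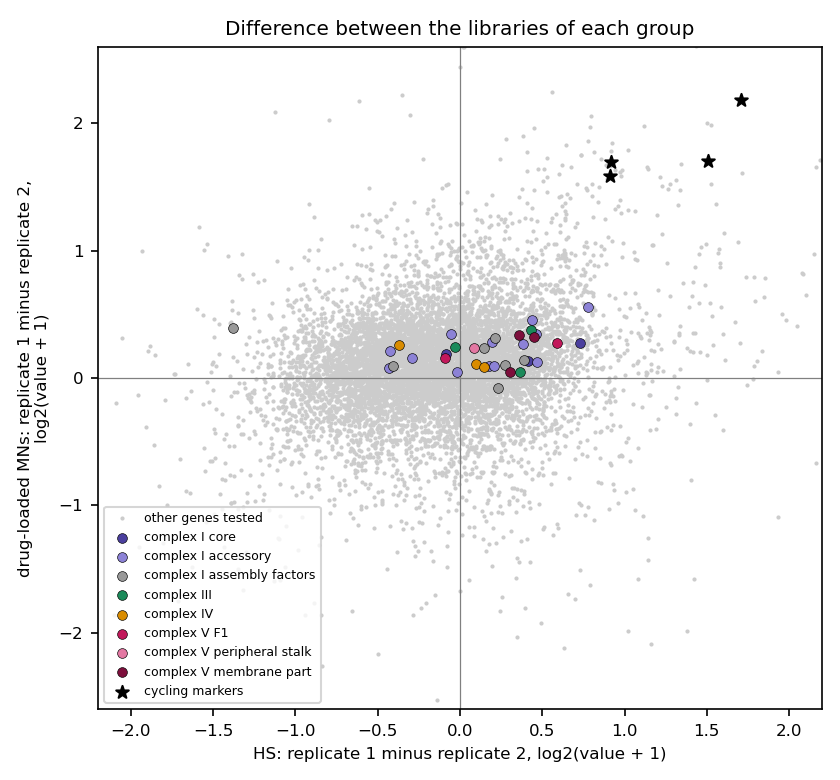
Difference between replicates 1 and 2 within HS (horizontal) and within drug-loaded MNs (vertical), on the log2(value + 1) scale, for 35 members by complex, the 4 cycling markers (stars) and the other genes tested (grey, with 91 genes outside the axes). Of the 35 members drawn, 34 lie above the horizontal line at 0 and 24 to the right of the vertical line.

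Compared within the same replicate number, the groups gave a median log2 difference over the members of 0.017 for replicate 1 and 0.013 for replicate 2. The numbers are not known to pair the libraries, so these values are not repeats of a paired comparison. Differences of single genes depended on which libraries were compared. NDUFB6 was higher in drug-loaded MNs by 0.69 in replicate 1 and 0.25 in replicate 2, COX4I2 by 0.78 and 0.15, and NDUFC1 by 0.68 and 0.047. NDUFAF2 was higher by 1.42 in replicate 1 and lower, at -0.35, in replicate 2. In each of these genes HS replicate 1 was the lowest library. Without HS replicate 2 the differences were 0.61 for NDUFB6, 0.65 for COX4I2, 0.58 for NDUFC1 and 1.23 for NDUFAF2. These genes stood out among the members in that fit, which holds a single HS library and so rests on HS replicate 1. Without HS replicate 1 the differences were 0.32 for NDUFB6, 0.28 for COX4I2, 0.15 for NDUFC1 and -0.15 for NDUFAF2.

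The summed level of the 29 subunits was 9814 and 8203 units in HS, against 9613 and 8341 with drug-loaded MNs. The mean of drug-loaded MNs was 0.996 of that of HS, while HS replicate 1 was 1.20 times HS replicate 2. By complex, the ratio of group means was 1.03 for complex I, 0.937 for complex III, 1.003 for complex IV and 0.985 for complex V. Complex I was at 3208 and 2766 units in HS, against 3284 and 2861 with drug-loaded MNs, and complex V at 4179 and 3321 in HS, against 4022 and 3364 with drug-loaded MNs. In all 4 complexes both replicate 1 libraries were above both replicate 2 libraries. With 2 libraries against 2, an exact permutation test, two-sided, cannot give a p below 0.333, so these sums were not tested.

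The subunits encoded by mitochondrial DNA, which were not members, had a different pattern from their nuclear partners. Of 13 in the table, ATP6, COX3, ND3 and ND4 are listed at 0 in all 4 libraries. All respiring cells use these genes, so their listed values cannot be read as a lack of expression, and the other 9 give only part of the mitochondrial signal. These 9 were all higher on average in drug-loaded MNs at a median log2 difference of 1.24. In 8 of them the groups did not overlap, beside 26.6 percent of all genes tested in that direction. Unadjusted p was under 0.05 in 7 of 9, beside 7.26 percent of all genes in that direction. The test was passed by 1 of 9, ND4L, beside 0.0428 percent of all genes.

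ND4L, a complex I subunit, was at 408 and 677 units in HS, against 3613 and 3570 with drug-loaded MNs. It rose by a log2 difference of 2.77 (SE 0.290, adjusted p 0.0455), but it passed in only 6 of the 14 alternative fits. Over all 14 its adjusted p ranged from 5.65e-14 to 0.484. The lowest came from a block on replicate number, which leaves 1 residual degree of freedom. CYTB, the mitochondrially encoded core of complex III, was at 1120 and 1137 in HS, against 4479 and 5105 with drug-loaded MNs, a difference of 2.08 with an adjusted p of 0.0617. COX2, a catalytic subunit of complex IV, was at 18665 and 16840 in HS, against 17944 and 21194 with drug-loaded MNs. Its groups overlapped, with a difference of 0.14 that became -0.007 with median ratio scaling. ND4L and ND4, like ATP8 and ATP6, overlap in the mitochondrial genome, and reads in the shared stretch cannot be assigned to 1 of them.

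**Figure D4:**
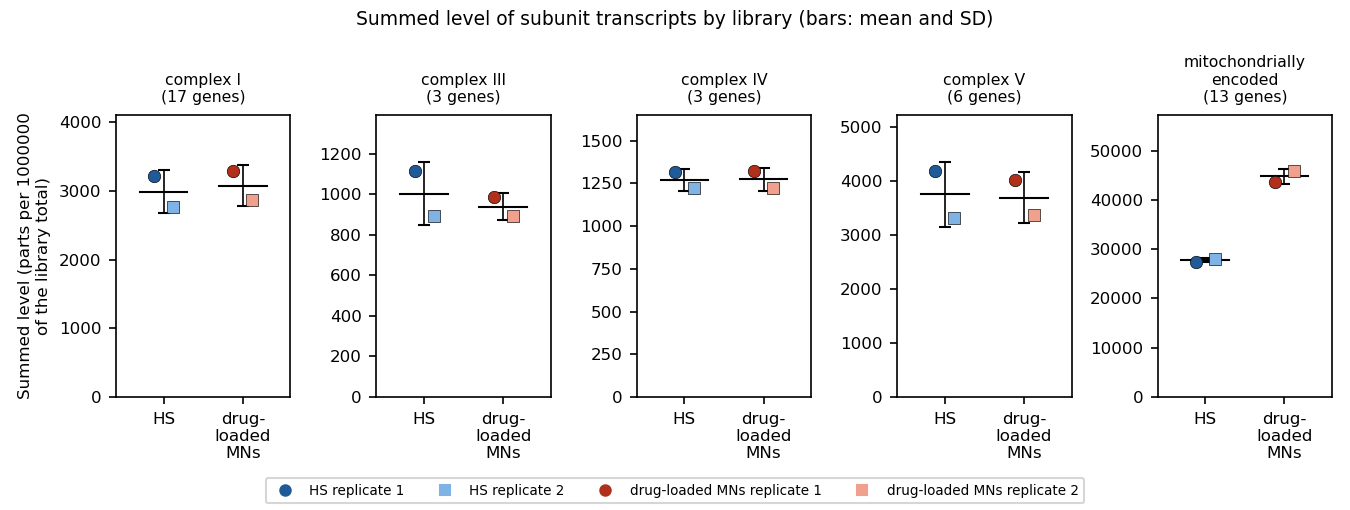
Summed level of the nuclear-encoded subunits of complexes I, III, IV and V and of the mitochondrially encoded subunits, in parts per 1000000 of the library total. Points are libraries, with the mean and SD of each group (n = 2). The nuclear sums overlap between the groups, while the mitochondrially encoded sum was 27457 and 27998 units in HS, against 43676 and 45805 with drug-loaded MNs.

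The ratio of nuclear to mitochondrially encoded subunit transcripts within a library was therefore lower in drug-loaded MNs. It was 0.357 and 0.293 in HS, against 0.220 and 0.182 with drug-loaded MNs, a log2 difference of -0.69 beside a pooled SD of 0.198. It ranged from -0.84 to -0.55 when a library was left out. For complex III against CYTB the ratio was 0.994 and 0.784 in HS, against 0.220 and 0.175 with drug-loaded MNs. For complex I against the mitochondrially encoded ND genes it was 0.917 and 0.574 in HS, against 0.295 and 0.281 with drug-loaded MNs. For complex IV against COX1 and COX2 it was 0.0590 and 0.0581 in HS, against 0.0508 and 0.0422 with drug-loaded MNs. For complex V against ATP8 it was 7.65 and 3.39 in HS, against 1.98 and 2.29 with drug-loaded MNs.

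**Figure D5:**
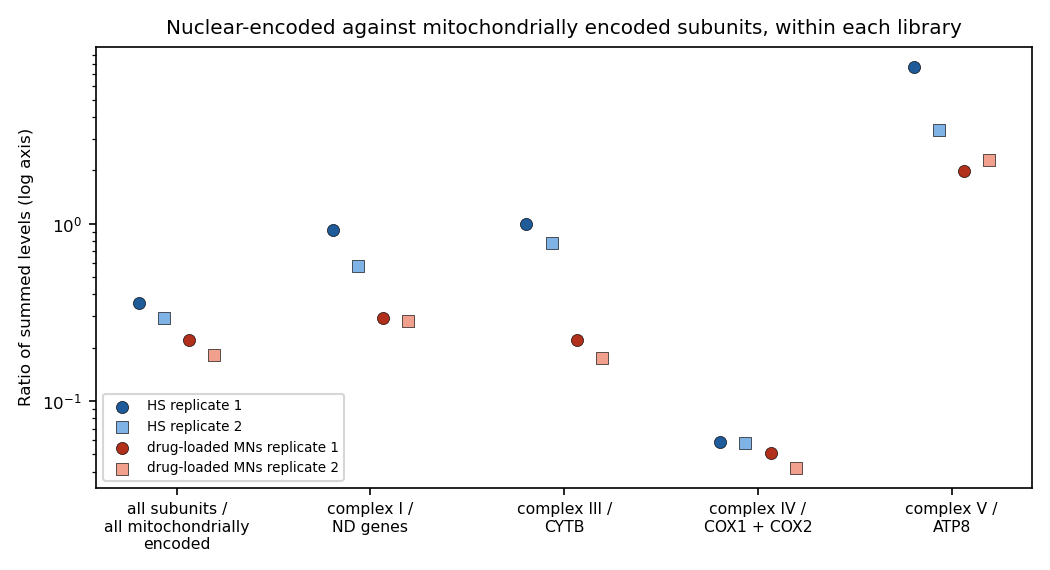
Ratio of summed nuclear-encoded to summed mitochondrially encoded subunit levels within each library, over all subunits and by complex, on a log axis. In each of the 5 ratios both drug-loaded MNs libraries lie below both HS libraries.

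Since the nuclear sum had a ratio of 0.996 between the groups, this separation lay in the mitochondrially encoded transcripts, whose sum was 1.61 times as high in drug-loaded MNs. COX2, whose own groups overlapped, made up 18665 of the 27457 units in HS replicate 1. In drug-loaded MNs replicate 1 it made up 17944 of 43676. The summed fibroblast markers moved with the mitochondrially encoded sum, at 22996 and 22526 units in HS, against 44682 and 48616 with drug-loaded MNs, and the summed macrophage markers were at 90.6 and 105 in HS, against 222 and 219 with drug-loaded MNs. The mitochondrial share is itself a usual measure of cell quality. The paper reports that cells were filtered, with a cap on their mitochondrial percentage. Whether the deposited table was made before or after that step is not stated. The part of cell types, of quality and of such a cap in the ratio was not tested.

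Neighbouring mitochondrial gene groups held no gene at an unadjusted p under 0.05. Of 18 other electron transfer genes named, such as those for coenzyme Q synthesis, 11 were tested, with 7 higher, 4 lower and a median log2 difference of 0.076. COQ5, a methyltransferase of coenzyme Q synthesis, had the largest difference, at 6.27 and 7.47 units in HS, against 9.45 and 10.6 with drug-loaded MNs (0.49, adjusted p 0.720). Of 47 other assembly factors named, 25 were tested, with 16 higher, 9 lower and a median of 0.098. TTC19, which acts on complex III, was at 9.74 and 24.3 units in HS, against 27.8 and 27.9 with drug-loaded MNs. Its difference of 0.80 (adjusted p 0.675) was 0.19 without HS replicate 1.

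Of 13 regulators of mitochondrial biogenesis and mitochondrial transcription named, 9 were tested, with 4 higher and 5 lower. Their median was -0.035, and TFB1M, which methylates mitochondrial ribosomal RNA, had the largest difference, at 34.9 and 30.5 units in HS, against 27.7 and 23.3 with drug-loaded MNs (-0.35, adjusted p 0.773). Of 18 tricarboxylic acid cycle enzymes named, 10 were tested, with 6 higher, 4 lower and a median of 0.076. DLST, part of the oxoglutarate dehydrogenase complex, was at 19.7 and 26.4 in HS, against 37.9 and 24.4 with drug-loaded MNs (0.40, adjusted p 0.800). These medians lay, like that of the members, below the 0.121 of all genes tested.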

How the data were processed

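The deposited table holds 1 normalized value for each of 13913 genes and 4 libraries. The authors used Cell Ranger (2.1.1) and Seurat, and report a cap on the mitochondrial percentage of cells. The submitters' processing notes name mm10, a mouse build, although the gene identifiers are those of rabbit. How cells were combined and doublets treated is not given in the sources used here. The deposited table is named for FPKM, but every deposited column sums to 10000, so the values were treated as a score of unknown normalization. Low values were not whole multiples of 1 step (18.5 to 21.7% within 0.1), so counts could not be recovered and no count model was used.

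Values were rescaled to 1000000 per library. Genes with a mean of at least 1 were kept (9348), and log2(value + 1) was tested with limma 3.58.1 in R 4.3.3 (lmFit, eBayes with a variance trend, two-sided, Benjamini-Hochberg over all genes, 0.05), checked on simulated data. Named were the members with the 2 highest and 2 lowest differences in each of complex I (accessory), III, IV and V, the core, isoform and ring genes, assembly factors differing by over 0.5, the mitochondrially encoded genes, and in each other list the gene of largest difference. The members and lists were chosen with earlier results of these data known. All 36 symbols matched 1 gene in RefSeq (mOryCun1.1), where the whole span of 14 overlaps that of another gene. Strand was not compared, and whether reads of such genes were counted apart was not examined. One member enters the counts, medians and sums, but its own values are not reported here or drawn. Alternatives were other scalings, pseudocounts (0.1, 5), filters, priors, a replicate block, and leaving out each library.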

Additional observations from a re-analysis of the deposited data

How the results depend on the processing

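The count of 0 members past the threshold held in all 14 alternatives. The count of genes past it, 4, was 0 with median ratio scaling, quantile normalization, a total without abundant genes, a pseudocount of 5 or no filter, and 1 without the variance trend. Leaving out a library gave 0 to 75 genes. With the replicate number as a block it was 241 genes, with 0 members among them, and 7 of the 9 mitochondrially encoded genes tested passed (ND1, COX1, ATP8, ND4L, ND5, ND6 and CYTB, adjusted p 5.65e-14 to 0.00379), beside 1 without the block. The block leaves 1 residual degree of freedom, so these p-values rest largely on the variance prior shared over genes. CYTB also passed with a minimum mean of 5 (0.0428) and a robust prior (0.0204). With a library left out, the log2 difference of CYTB was 1.99 to 2.18 and that of ND6 1.44 to 3.53. Deviations of same-numbered libraries correlated at 0.22 over genes and 0.11 over members, but with 2 pairs and no label for it the numbers were not taken to pair the samples. The cause of these shifts was not tested. In 27 of 36 members the sign differed in some alternative, and in 9 in none.

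Median ratio scaling gave a log2 difference of -0.13 for NDUFA9, -0.13 for NDUFB11, -0.031 for NDUFAF6, -0.056 for UQCRB, -0.12 for COX6A1, -0.049 for ATP5F1A, -0.063 for ATP5PF, -0.12 for ATP5MC2 and -0.007 for COX2. Quantile normalization gave -0.089 for NDUFA9, -0.020 for NDUFAF6, 0.010 for COX5B, 0.029 for ATP5MC1, -0.035 for ATP5MC2 and -0.10 for COX2. A total without abundant genes gave -0.00088 for NDUFA9.

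Leaving out each library in turn gave ranges that crossed 0. In complex I they were -0.11 to 0.078 for NDUFS1, -0.025 to 0.39 for NDUFS3, -0.52 to 0.21 for NDUFV2, -0.23 to 0.20 for NDUFA3, -0.22 to 0.24 for NDUFA9, -0.40 to 0.38 for NDUFAB1, -0.091 to 0.11 for NDUFB11, -0.22 to 0.066 for NDUFB3, -0.38 to 0.084 for NDUFB5, -0.32 to 0.15 for NDUFB9 and -0.33 to 0.053 for NDUFS4. Among assembly factors they were -0.15 to 1.23 for NDUFAF2, -0.15 to 0.12 for NDUFAF5, -0.0087 to 0.23 for NDUFAF6 and -0.016 to 0.39 for NDUFAF7. In complexes III and IV they were -0.035 to 0.21 for UQCRB, -0.42 to 0.012 for UQCRC1, -0.28 to 0.087 for UQCRQ, -0.13 to 0.011 for COX5B and -0.031 to 0.081 for COX6A1. In complex V they were -0.47 to 0.12 for ATP5F1C, -0.036 to 0.20 for ATP5PF, -0.20 to 0.11 for ATP5MC1, -0.15 to 0.20 for ATP5MC2 and -0.31 to 0.14 for ATP5MC3.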
